A study of Mus musculus with 21 samples.

Results

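Endothelial cells line blood and lymph vessels, and 9 genes that mark them were followed through all 7 groups of libraries of the series. The genes were taken by their symbols from both count tables, and all 9 were found in each table of 24594 genes. They are the VEGF receptors Kdr and Flt1, the Tie receptors Tek and Tie1, the surface and junction proteins Pecam1, Cdh5, Esam and Emcn, and the transcription factor Erg. They were listed by name, and no threshold on a measured value entered the rule.

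Kdr (VEGFR2) is the main signalling receptor for VEGF on endothelial cells, while Flt1 (VEGFR1) binds VEGF tightly and limits what reaches Kdr. Tek (Tie2) is the receptor of the angiopoietins, and Tie1 is its partner, with no well-defined ligand of its own. Cdh5 (VE-cadherin) holds endothelial cells together at their junctions, where Pecam1 and Esam also sit, Emcn is a sialomucin of the surface of venous and capillary cells, and Erg is an ETS-family factor that keeps endothelial genes active. Pharyngeal arches carry aortic arch arteries and a capillary plexus. The endothelium of these vessels arises from mesoderm, whereas most arch mesenchyme arises from neural crest.

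The study sequenced RNA of mouse embryos, with 3 libraries in each group, and deposited a genotype table and a stage table. In the genotype table, pharyngeal arches PA2 and PA3 were cut out at E10.5 (E, embryonic day) from WT embryos and from HIRE1del/del embryos, titled delta-E3 and here HIRE1del. HIRE1 is a distal enhancer region on chromosome 6 that contacts Hoxa2, and it was removed with CRISPR/Cas9 on a C57Bl/6J background. In the stage table, RFP-positive cells of Wnt1::Cre;ROSA-RFP embryos, in which the Wnt1 promoter drives Cre in premigratory neural crest progenitors, were sorted out of E10.5 PA2 and, at E12.5 and E14.5, out of the developing pinna (the outer ear). The mice of every group carried mixed C57Bl/6J and CD1 ancestry, embryos of different sexes were pooled, and the replicates are described as independent biological ones. Cells of E10.5 and E12.5 were freed with trypsin and those of E14.5 with papain, so stage and enzyme cannot be told apart at E14.5. The E10.5 cells came from PA2 and the later ones from the pinna. Stage and dissected tissue therefore cannot be told apart in comparisons with E10.5.

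Depth was 25.8 to 32.2 M counts for a dissected library and 25.8 to 49.1 M for a sorted one. CPM values (counts per 1 M counts) are scaled with edgeR's TMM factors, and 3 counts, taken as the floor, equal 0.0924 to 0.117 CPM in dissected and 0.0631 to 0.111 CPM in sorted libraries. Hoxa2 followed the labels: it lay between 73.4 and 84.2 CPM in PA2 WT and between 4.75 and 7.09 CPM in PA2 HIRE1del, and in PA3 HIRE1del it was lower by 1.36 on the log2 scale (edgeR adjusted p = 5.04e-05). The labels call every library cranial neural crest cells. For the genotype table, however, no sorting is stated, and its libraries held 1351 to 21608 summed CPM of 6 erythroid genes and 170.5 to 524 CPM of 6 epithelial genes, against 0.925 to 7.43 and 7.84 to 42.6 CPM in the sorted libraries. The 7 crest mesenchyme genes summed to 665 to 1161 CPM in the former and 1629 to 3993 CPM in the latter. These 12 libraries are therefore called dissected arches.

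On GRCm38 (GENCODE M21 annotation), both VEGF receptor genes lie on chromosome 5, with Kdr at chr5:75932827-75978458 and Flt1 at chr5:147561604-147726011, both on the minus strand. The Tie receptor genes share chromosome 4, with Tek on the plus strand at chr4:94739289-94874976 and Tie1 on the minus strand at chr4:118471191-118490061. Pecam1 is at chr11:106654217-106750628 (minus), Cdh5 at chr8:104101625-104144511 (plus), Esam at chr9:37528078-37538319 (plus), Emcn at chr3:137341067-137432185 (plus) and Erg at chr16:95359169-95586593 (minus). None of the 9 lies on chromosome 6 with HIRE1 and the Hoxa cluster. Only Cdh5 overlapped another annotated gene, the antisense transcript Gm29682, and the exons of the 2 shared 0 bases.

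RefSeq promoter windows (GRCm38.p6, 250 bases before the start site and 50 from it on) were found for 6 of the 9 genes, namely Kdr, Flt1, Tek, Tie1, Emcn and Erg. The 4 receptor promoters are printed because their genes parted ways in the data. Tek and Tie1 differed between the arches where Kdr and Flt1 did not pass the main test, which does not pair libraries. With PA2 and PA3 libraries of the same number paired, Kdr passed as lower in PA3 WT (edgeR adjusted p = 0.0427). Kdr alone of the 4 passed the test between stages of sorted cells. Capitals mark matches on either strand of 2 ETS-type words, AGGAAG and the variant CGGAAG, of the GATA-type word AGATAA, or of the GC box GGGCGG. The windows are Kdr chr5:75978406-75978705 (minus), Flt1 chr5:147725962-147726261 (minus), Tek chr4:94739039-94739338 (plus) and Tie1 chr4:118489800-118490099 (minus), each written 5′ to 3′ along its gene.
Kdr: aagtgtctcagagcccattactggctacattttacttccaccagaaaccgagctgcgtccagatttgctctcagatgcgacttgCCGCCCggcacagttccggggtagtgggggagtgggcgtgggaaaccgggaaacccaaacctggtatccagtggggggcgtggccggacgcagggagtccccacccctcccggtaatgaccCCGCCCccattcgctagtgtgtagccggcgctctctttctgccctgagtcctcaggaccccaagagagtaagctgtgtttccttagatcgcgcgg
Flt1: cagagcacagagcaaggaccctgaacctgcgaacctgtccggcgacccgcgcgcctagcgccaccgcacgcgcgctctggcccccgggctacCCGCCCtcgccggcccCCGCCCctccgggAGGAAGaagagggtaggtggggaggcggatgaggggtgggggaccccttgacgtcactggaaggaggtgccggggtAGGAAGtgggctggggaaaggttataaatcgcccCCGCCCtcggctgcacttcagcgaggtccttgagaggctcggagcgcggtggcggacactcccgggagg
Tek: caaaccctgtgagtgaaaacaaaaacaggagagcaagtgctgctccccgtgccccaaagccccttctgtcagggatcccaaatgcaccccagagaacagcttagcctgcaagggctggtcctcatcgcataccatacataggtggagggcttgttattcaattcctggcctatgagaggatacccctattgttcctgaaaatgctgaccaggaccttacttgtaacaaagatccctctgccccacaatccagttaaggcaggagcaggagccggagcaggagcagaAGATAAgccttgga
Tie1: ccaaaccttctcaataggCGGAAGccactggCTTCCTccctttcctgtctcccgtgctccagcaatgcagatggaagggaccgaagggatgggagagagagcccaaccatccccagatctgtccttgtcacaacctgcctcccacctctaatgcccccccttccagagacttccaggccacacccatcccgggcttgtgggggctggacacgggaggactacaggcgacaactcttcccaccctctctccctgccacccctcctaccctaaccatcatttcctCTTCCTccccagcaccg

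AGGAAG occurred 2 times in the Flt1 window and 2 times in the Tie1 window, and CGGAAG 1 time in the Tie1 window. Of 32851 promoter windows of this length, 35.4% held AGGAAG and 16.9% held CGGAAG. The GC box GGGCGG occurred 2 times in the Kdr window and 3 times in the Flt1 window, and is in 35.7% of all windows. The word AGATAA occurred 1 time in the Tek window, and is in 11.2% of all windows. No matches overlapped each other in these 4 windows. The matches describe letters and no site was measured.

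In dissected arches the endothelial genes were clearly present, Kdr at the highest CPM. Kdr read 96.5, 95.1 and 97.0 CPM in the 3 PA2 WT libraries and 94.3, 98.4 and 93.9 CPM in PA2 HIRE1del. In PA3 it read 81.9, 84.2 and 91.9 CPM in WT and 79.5, 91.9 and 96.5 CPM in HIRE1del. All PA3 WT libraries thus lay below all PA2 WT libraries, while the HIRE1del groups overlapped. In bulk RNA, fewer endothelial cells and less RNA per cell cannot be told apart, here and in what follows.

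Flt1, the VEGF-binding receptor, read 29.6, 27.6 and 26.2 CPM in PA2 WT, 29.9, 27.9 and 29.4 in PA2 HIRE1del, 31.5, 31.4 and 30.2 in PA3 WT and 28.1, 34.1 and 33.6 in PA3 HIRE1del. The PA3 WT libraries were just above those of PA2 WT, and the HIRE1del libraries of the arches overlapped.

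The Tie receptors were the genes of the 9 that set the arches apart most. Tek read 25.2, 25.6 and 21.9 CPM in PA2 WT and 23.5, 20.97 and 21.7 CPM in PA2 HIRE1del, against 42.7, 41.6 and 41.7 CPM in PA3 WT and 37.3, 41.9 and 42.0 CPM in PA3 HIRE1del. Tie1 read 32.0, 40.8 and 36.7 CPM in PA2 WT and 38.2, 38.8 and 40.3 CPM in PA2 HIRE1del, against 57.9, 60.8 and 64.4 CPM in PA3 WT and 59.1, 55.6 and 53.4 CPM in PA3 HIRE1del. For both genes every PA3 library was above every PA2 library, whatever the genotype.

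Among the junction and surface proteins, Cdh5 read 53.8, 57.4 and 55.0 CPM in PA2 WT and 56.9, 55.5 and 61.9 CPM in PA2 HIRE1del, against 75.0, 79.2 and 80.0 CPM in PA3 WT and 68.0, 74.7 and 70.8 CPM in PA3 HIRE1del. Here too the arches did not overlap, and the 3 HIRE1del libraries of PA3 were the lower ones. Pecam1 read 43.1, 50.5 and 45.1 CPM in PA2 WT, 41.4, 44.0 and 48.1 in PA2 HIRE1del, 51.4, 58.1 and 56.2 in PA3 WT and 53.2, 52.0 and 57.0 in PA3 HIRE1del. The lowest PA3 library of Pecam1 was just above the highest of PA2.

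Emcn, the sialomucin, read 22.5, 20.7 and 19.1 CPM in PA2 WT, 21.3, 20.4 and 21.1 in PA2 HIRE1del, 26.5, 28.2 and 24.5 in PA3 WT and 26.2, 27.7 and 25.8 in PA3 HIRE1del, again with all PA3 libraries above all PA2 libraries. Esam read 17.5, 15.01 and 17.1 CPM in PA2 WT and 17.1, 21.5 and 20.0 CPM in PA3 WT, with overlap, and 15.5, 17.1 and 18.4 CPM in PA2 HIRE1del and 18.4, 19.4 and 21.3 CPM in PA3 HIRE1del, where the lowest PA3 library was just above the highest of PA2. Erg, the ETS factor, was low, from 0.658 to 1.29 CPM over the 12 libraries, and its 4 groups overlapped. Cldn5, an endothelial junction gene outside the 9, was listed at 0 counts in all 21 libraries. Ufd1, a gene of general protein turnover that was picked after its values were seen, had 0 or 1 count in each library, so a count of 0 in these tables is not read as absent RNA.

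**Figure D1:**
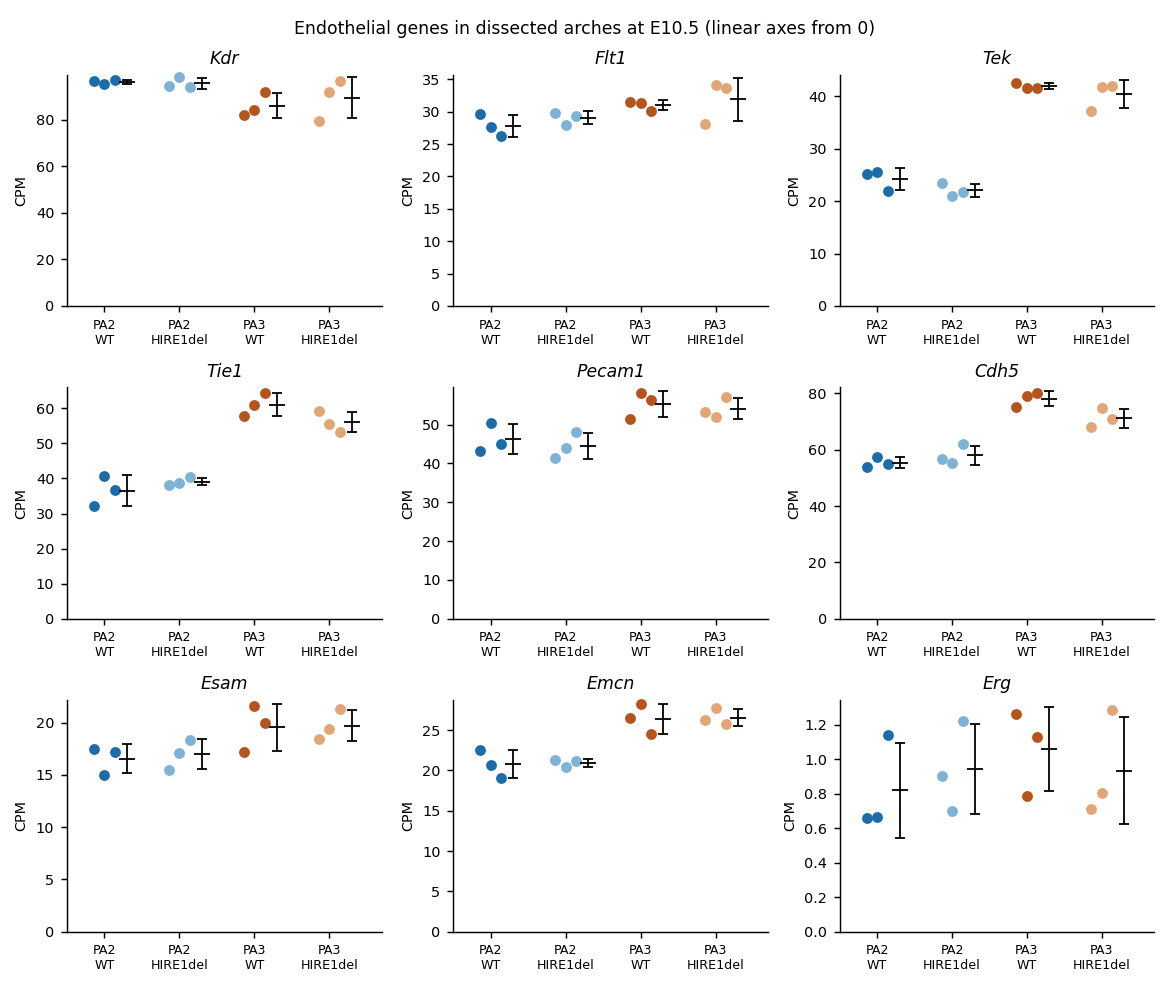
CPM of the 9 endothelial genes in dissected PA2 and PA3 at E10.5, 1 panel per gene with a linear axis from 0. Coloured points are libraries (3 per group) and the black mark and bar give the group mean ± SD. Tek, Tie1, Cdh5, Emcn and, by a small margin, Pecam1 are higher in all PA3 libraries than in all PA2 libraries of either genotype, and Kdr is not.

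Levels of different genes can be compared only per length, as RPKM (CPM per kilobase of exon). On that scale Cdh5 led every dissected group, with means of 13.2 RPKM in PA2 WT, 13.8 in PA2 HIRE1del, 18.6 in PA3 WT and 16.9 in PA3 HIRE1del. Behind it in PA2 WT came Pecam1 at 10.7 and Kdr at 10.7 RPKM, whose libraries overlapped, and then Tie1 at 7.43, Esam at 5.77 and Tek at 5.14 RPKM, of which Esam and Tek overlapped. Emcn at 3.84, Flt1 at 2.40 and Erg at 0.237 RPKM closed the order without overlap. In PA3 WT the order was Cdh5, Pecam1 at 12.8, Tie1 at 12.4, Kdr at 9.52, Tek at 8.90, Esam at 6.82, Emcn at 4.88, Flt1 at 2.68 and Erg at 0.305 RPKM, with overlap between Pecam1 and Tie1 alone. Kdr thus stood in place 3 in PA2 WT and 4 in PA3 WT. Its share of the summed CPM of the 9 genes was 28.5 to 30.4% in PA2 WT and 20.8 to 22.4% in PA3 WT. This share is not scaled for length, weighs long genes more and is read between groups alone.

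The first comparison asked whether the deletion of HIRE1, with its lower Hoxa2, went with other levels of the endothelial genes. In PA2, 0 of the 9 genes passed edgeR's quasi-likelihood test (adjusted p under 0.05 over 14383 genes), where 0.438% of all genes did. The count at an unadjusted p under 0.05 was also 0, against 8.57% of all genes, and DESeq2 and limma-voom called 0. Outside Erg, log2 fold changes ran from -0.13 for Tek to 0.10 for Tie1, and their 95% intervals lay between -0.30 and 0.27. The median of the 9 was 0.04, and that of all genes tested was -0.0083. Each gene's WT and HIRE1del libraries overlapped in PA2, where 13.2% of all genes had groups apart. For Erg, with 17 to 37 counts a library in PA2, the interval of -0.56 to 0.93 is wide.

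In PA3, 0 of the 9 genes passed the edgeR test against 0.216% of all genes, and 0 did so with DESeq2 or limma-voom. Cdh5 was the nearest to a call: its 3 HIRE1del libraries lay below the 3 WT libraries, by a log2 fold change of -0.13 ± 0.06 (SE), with an unadjusted p of 0.0347 and an edgeR adjusted p of 0.473. It was the 1 gene of 9 with an unadjusted p under 0.05, which 9.73% of all genes had, and the 1 gene with groups apart, which 14.3% of all genes had. The remaining log2 fold changes ran from -0.17 for Erg to 0.05 for Kdr, and the median of the 9 was -0.03.

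The difference between the PA2 and PA3 effects of HIRE1 was tested as an interaction (PA2 minus PA3). By edgeR 0 of the 9 genes passed, where 0.0487% of all genes did, and 0 passed with DESeq2 or limma-voom. Cdh5 again had the smallest unadjusted p, 0.0269, with a difference of 0.20 ± 0.08 (SE) on the log2 scale and an edgeR adjusted p of 0.887, and it was the 1 gene of 9 under 0.05, where 5.52% of all genes were. Tie1 had the next, at 0.22 ± 0.11. In the 7 further lists of vascular genes (other endothelial markers, the VEGF family, angiopoietins, ETS factors, arterial, venous or lymphatic, and mural genes), edgeR called 0 of 62 tested genes in PA2, 0 in PA3 and 0 in the interaction, with 7, 6 and 7 at an unadjusted p under 0.05. These were 11.3%, 9.68% and 11.3% of the 62, against 8.57%, 9.73% and 5.52% of all genes.

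PA3 was then set against PA2 in the main test, which does not pair libraries. In WT, 5 of the 9 endothelial genes rose and 0 fell, where 36.5% of all genes passed the test and 19.1% rose. Tek was higher by a log2 fold change of 0.79 ± 0.08 (SE; edgeR adjusted p = 6.25e-06), a fold of 1.73, and Tie1 by 0.74 ± 0.08 (edgeR adjusted p = 1.62e-05). Cdh5 was higher by 0.49 ± 0.06, Emcn by 0.35 ± 0.08 and Pecam1 by 0.26 ± 0.08, with edgeR adjusted p-values of 2.84e-05, 0.00382 and 0.0184. The median of the 9 was 0.35 against -0.00065 for all genes tested. The VEGF receptors did not pass: Kdr had -0.16 ± 0.07 (edgeR adjusted p = 0.0744) and Flt1 0.16 ± 0.08. Neither did Esam, at 0.24 ± 0.10 (edgeR adjusted p = 0.0853), nor Erg, at 0.35 with an interval of -0.39 to 1.08.

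No label states that PA2 and PA3 libraries share embryos. Libraries of the same genotype and number moved together between the arches, so the fit was repeated with these pairs as a block. Kdr was then called lower in PA3 WT, at -0.16 with an edgeR adjusted p of 0.0427, and also in a fit of these 6 libraries alone (0.0488). Pecam1 was no longer called when PA2 WT replicate 1 or 3, or PA3 WT replicate 2 or 3, was left out, with edgeR adjusted p-values of 0.0743, 0.0635, 0.0727 and 0.0538, and Esam was called without PA3 WT replicate 1, at 0.0315. In 7 of the 9 genes the 3 PA3 WT libraries were apart from the 3 of PA2 WT (6 higher, and Kdr lower), as in 49.9% of all genes.

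In HIRE1del arches, whose libraries are separate from those of WT, 5 of the 9 genes rose and 0 fell, against 33.4% of all genes called and 18.7% that rose. All 5 are shared with the WT comparison. Tek was higher by a log2 fold change of 0.87 ± 0.08 (SE; edgeR adjusted p = 3.48e-06) and Tie1 by 0.52 ± 0.08 (edgeR adjusted p = 0.000300). Emcn had 0.34 ± 0.08, Cdh5 0.29 ± 0.06 and Pecam1 0.28 ± 0.08, with edgeR adjusted p-values of 0.00452, 0.00163 and 0.0127. Esam (0.21), Flt1 (0.14), Kdr (-0.10) and Erg (-0.01) did not pass. Without PA2 HIRE1del replicate 1 the Pecam1 call was lost (edgeR adjusted p = 0.0586), and without PA3 HIRE1del replicate 1 Flt1 was called (0.0388). Groups were apart in 6 of the 9 genes, against 45% of all genes, and the median of the 9 was 0.28. The interaction given above is the test of WT against HIRE1del arches, and no endothelial gene passed it.

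**Figure D2:**
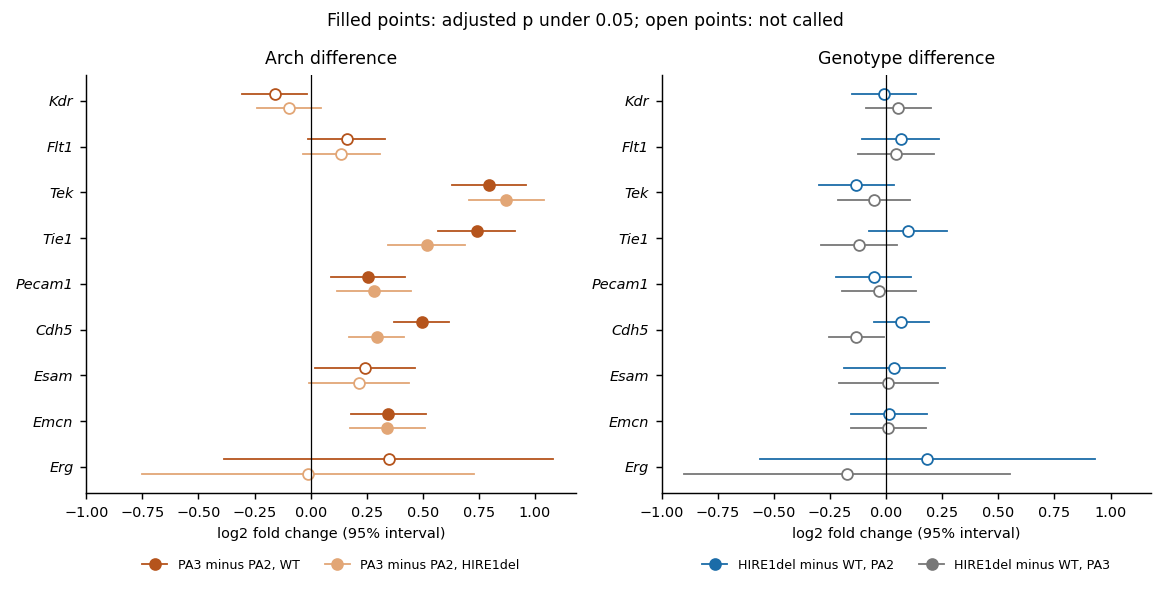
Log2 fold changes (points) with 95% intervals (lines) of the 9 endothelial genes; left, PA3 minus PA2 in WT and in HIRE1del; right, HIRE1del minus WT in PA2 and in PA3. Filled points passed the main edgeR test, without pairing, at an adjusted p under 0.05. These were 5 genes in each arch comparison, with Tek the highest at 0.79 and 0.87, and 0 in either genotype comparison.

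Markers of other cell types differed between the arches in the same libraries. Erythroid genes summed to 1351 to 2129 CPM in PA2 WT and 10804 to 21484 CPM in PA3 WT, with all 6 called higher. The 6 epithelial genes summed to 184 to 204 and 407 to 524 CPM (4 higher, 1 lower), 2 tested megakaryocyte genes rose, and 5 of 7 crest mesenchyme genes fell while 1 rose. Myeloid genes summed to 30.0 to 33.5 and 38.9 to 42.3 CPM, with 1 of 8 higher. In HIRE1del arches the erythroid sums were 1407 to 2946 CPM in PA2 and 12815 to 21608 CPM in PA3, and the epithelial sums 170.5 to 193 and 337 to 446 CPM. The neuronal genes Stmn2, Elavl3, Neurog1 and Tubb3 were higher in PA3 by log2 fold changes of 3.73, 3.94, 5.26 and 1.40 in WT and 4.58, 4.03, 5.59 and 2.24 in HIRE1del, all past the edgeR threshold. The part of these cells in the endothelial difference was not tested.

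The further vascular lists gave 35 genes higher and 10 lower of 62 in PA3 WT, where 36.5% of all genes were called. Angiopoietins, the ligands of Tek, rose in 3 of 3 cases: Angpt1 from 10.6 to 31.1 CPM (log2 fold change 1.56), Angpt2 from 6.40 to 19.2 CPM (1.58) and Angpt4, at 0.244 and 1.00 CPM, by 2.03. Of the other endothelial markers 17 of 24 rose and 2 fell, led by Tal1 (2.68), Vwf (2.40) and Clec14a (1.19); Tal1 is also an erythroid factor and Vwf is also made by megakaryocytes. Among 6 arterial genes 5 rose and 1 fell, with Bmx at 3.39 and the connexins Gja4 at 1.66 and Gja5 at 1.49. Bmx started low, at a mean of 0.308 CPM in PA2 WT. The 10 mural genes held 7 that rose and 1 that fell, with Acta2 (4.86), Tagln (3.78) and Rgs5 (2.37) in front. Of 8 VEGF-family genes Nrp1 (0.87) and Vegfa (0.17) rose and Flt4 (-0.28) fell. Of 6 ETS genes Elf1 rose (0.44) and 3 fell, with Fli1 at -0.44 and Ets1 at -0.23. The venous and lymphatic list had 0 of 5 higher and 2 lower, Nr2f2 (-0.33) and Ephb4 (-0.21).

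In HIRE1del arches the same lists gave 32 genes higher and 7 lower, where 33.4% of all genes were called. Tal1 (2.75), Vwf (2.41) and Clec14a (1.41) led the other endothelial markers, of which 15 of 24 rose and 1 fell. Angpt2 (1.34) and Angpt1 (1.22) rose, Bmx (3.66), Gja4 (1.80) and Gja5 (1.40) led the arterial genes, and Acta2 (5.04), Tagln (3.65) and Myh11 (2.34) the mural genes. Nrp1 (0.51) and Vegfd (0.58) rose and Flt4 (-0.39) fell. Ets2 (1.02) and Elf1 (0.55) rose and Fli1 (-0.49) fell, and Nr2f2 (-0.49) and Ephb4 (-0.38) fell.

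In sorted neural crest cells of PA2 at E10.5, every one of the 9 endothelial genes was low. Pecam1 read 2.54, 3.02 and 3.10 CPM and Kdr 3.14, 3.67 and 2.97 CPM, from 76 to 107 counts a library. Cdh5 read 0.335, 1.13 and 1.27 CPM, and the other 6 genes lay between 0.131 and 1.47 CPM, down to 4 counts for Erg. Set beside dissected PA2 WT, with no test because dissected and sorted libraries were sequenced differently, the 8 genes other than Erg stood at 1.18% (Tie1) to 6.25% (Pecam1) of the dissected level, with a median of 2.52%. Cdh5 was at 1.65%, Flt1 at 1.24%, Emcn at 1.57%, Kdr at 3.39%, Tek at 3.52% and Esam at 3.58%. For each of the 8 the sorted libraries were all below the dissected ones.

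Across the 13460 genes with at least 1 CPM in dissected PA2 WT, the sorted level was 97.2% of the dissected level at the median, and 5.82% of these genes were at or below 6.25%. The median was 155% for the 7 crest mesenchyme genes (28.0 to 187%) and 5.21% for 24 other endothelial markers (1.14 to 88.6%, with Clec14a at 88.5%). It was 1.84% for 6 epithelial genes (0.597 to 11.8%) and 0.262% for 6 erythroid genes (0.0078 to 6.06%). Erg, low in both, was at 20.5%.

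**Figure D3:**
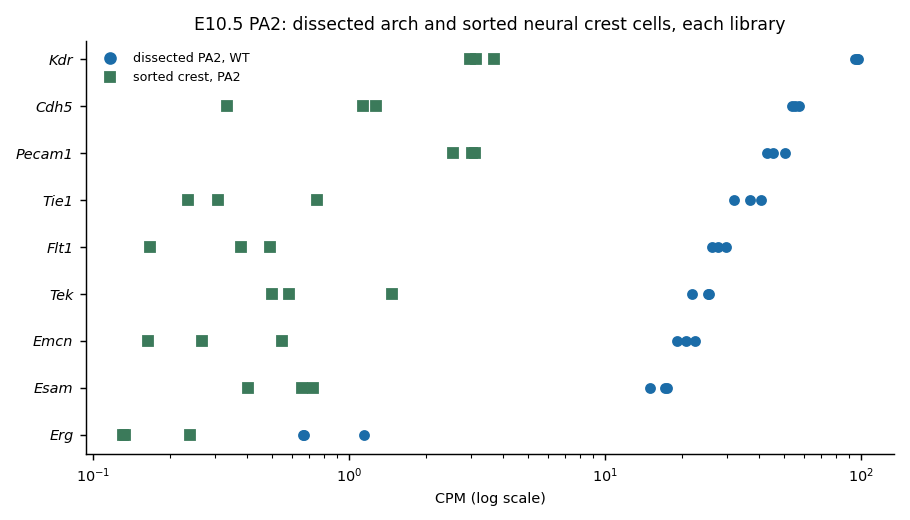
CPM (log scale) of each endothelial gene in the 3 dissected PA2 WT libraries (circles) and the 3 sorted PA2 libraries (squares) at E10.5. All sorted values lie under 4 CPM, and the dissected values of every gene but Erg lie above 15 CPM; dissected and sorted libraries were sequenced differently and are shown side by side with no test.

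From PA2 at E10.5 to the pinna at E12.5 and E14.5, Kdr was the exception among the 9 genes. It read 3.14, 3.67 and 2.97 CPM at E10.5, 18.3, 16.1 and 19.6 CPM at E12.5 and 167, 154 and 101 CPM at E14.5, from 91 to 107, 492 to 576 and 4635 to 7593 counts. The 3 stages did not overlap. Kdr rose by a log2 fold change of 2.46 ± 0.20 (SE; edgeR adjusted p = 1.08e-06) from E10.5 to E12.5, a fold of 5.51, and by 2.97 ± 0.17 (edgeR adjusted p = 7.81e-08) from E12.5 to E14.5, a fold of 7.84. Over the whole interval the difference was 5.43 (interval 4.99 to 5.88), a fold of 43.2. These 3 contrasts share libraries. Per length, Kdr reached 15.6 RPKM at E14.5, while the next gene, Esam, was at 0.700 RPKM.

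The remaining 8 genes stayed under 4 CPM in every sorted library, at a summed 4.58 to 8.04 CPM at E10.5, 5.57 to 16.2 CPM at E12.5 and 9.05 to 13.2 CPM at E14.5. Kdr made up 27.0 to 40.7%, 53.0 to 77.8% and 88.5 to 94.9% of the summed CPM of the 9 genes at these stages, not scaled for length. At E14.5, where Kdr lay above 100 CPM, the endothelial defining markers Cdh5 and Pecam1 averaged 2.18 and 2.43 CPM, Tie1 0.911 and Cd93 2.29 CPM. The list of 26 other endothelial markers, by contrast, summed to 684 to 721 CPM there (47.6 to 54.6 at E10.5), of which Cd34 made up 473 to 498 CPM and Eng 60.3 to 81.0 CPM. In the same libraries the crest mesenchyme list summed to 3597 to 3993 CPM (1629 to 1888 at E10.5), the mural list to 1420 to 1690 CPM (635 to 707), the epithelial list to 24.8 to 42.6 CPM (9.17 to 11.4) and the myeloid list to 7.67 to 12.8 CPM (4.95 to 5.52), and the part of these lists in the rise of Kdr was not tested.

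**Figure D4:**
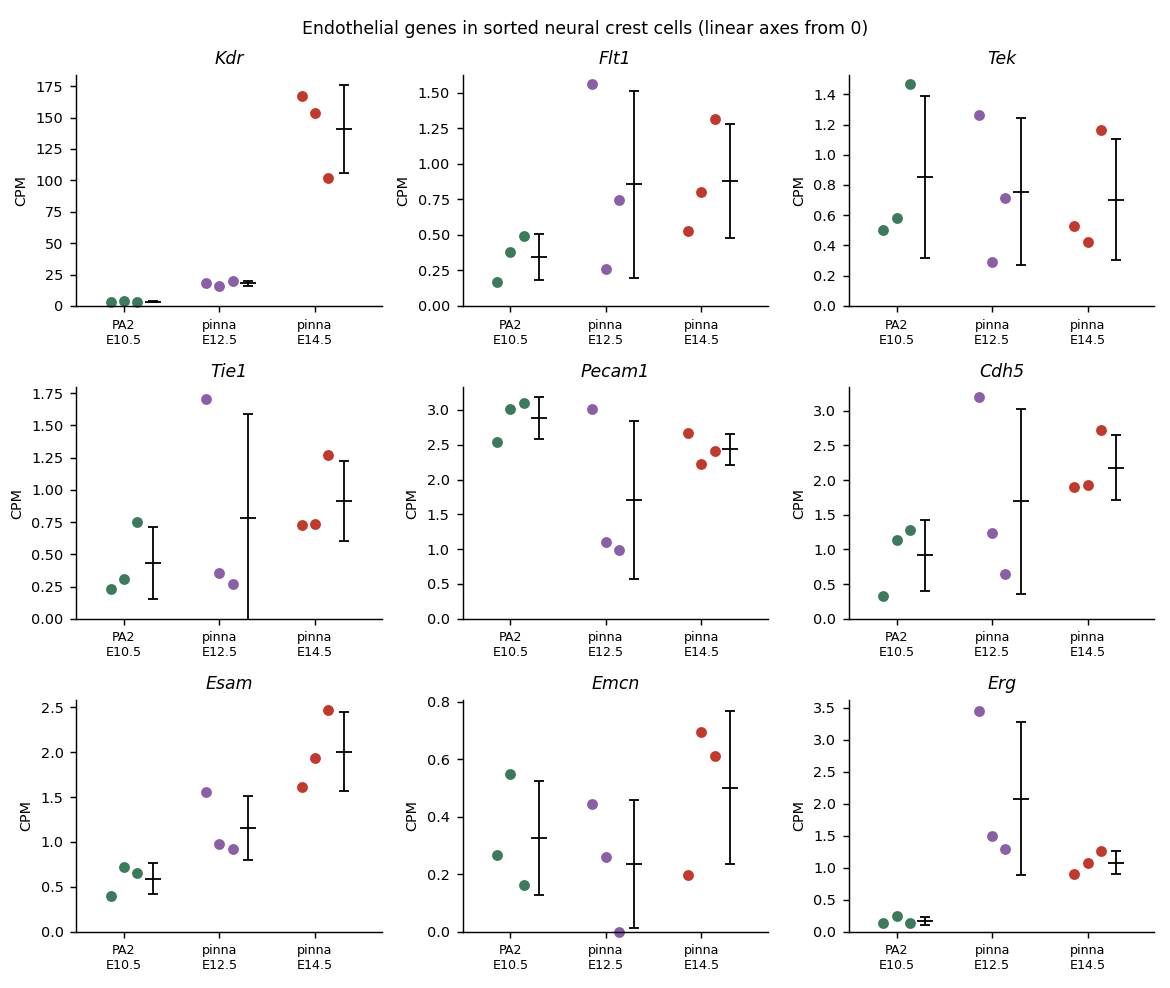
CPM of the 9 endothelial genes in sorted neural crest cells of PA2 (E10.5) and the pinna (E12.5, E14.5), 1 panel per gene with its own linear axis from 0. Points are libraries (3 per group) and the black mark and bar give the mean ± SD, cut at 0; Kdr climbs to 101 to 167 CPM, while the other 8 genes stay under 4 CPM and 8 of the 9 are highest in E12.5 replicate 1 within their group.

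Beside Kdr, Esam and Erg passed the test between E10.5 and E12.5, so that 3 of 8 tested genes rose and 0 fell, where 68.8% of all genes were called and 35% rose. Emcn, at 0 to 33 counts a library, did not pass the filter of 1 CPM in 2 libraries and was not tested. Erg read 0.134, 0.240 and 0.131 CPM at E10.5 and 3.45, 1.50 and 1.29 CPM at E12.5, from 4, 7 and 4 to 93, 46 and 38 counts. It rose by a log2 fold change of 3.60 ± 0.48 (SE; edgeR adjusted p = 4.79e-05). Esam read 0.401, 0.721 and 0.654 CPM at E10.5 and 1.56, 0.980 and 0.918 CPM at E12.5, and rose by 0.95 ± 0.33 (edgeR adjusted p = 0.0248). That call was lost without E10.5 replicate 1 (edgeR adjusted p = 0.0905) or E12.5 replicate 1 (0.108). The groups were apart in 3 of the 8 genes, and in 74.5% of all genes. The medians were 0.91 for the 8 genes and 0.0097 for all genes tested.

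Cdh5 (0.88 ± 0.56), Flt1 (1.28 ± 0.63), Tie1 (0.82 ± 0.69), Tek (-0.19 ± 0.59) and Pecam1 (-0.77 ± 0.36) did not pass between E10.5 and E12.5. Much of their spread lay in E12.5 replicate 1, where 8 of the 9 genes had their highest value of the group. Tie1 was 5.41 times, Cdh5 3.39 times, Flt1 3.09 times, Pecam1 2.87 times, Tek 2.51 times and Erg 2.47 times as high there as in the mean of replicates 2 and 3, and Kdr 1.03 times. Erythroid genes summed to 7.43 CPM in that library and to 1.37 and 3.19 CPM in replicates 2 and 3, and Cd93 read 2.93 CPM against 0.849 and 0.918 CPM. Myeloid genes summed to 4.12 against 4.11 and 4.55 CPM, and epithelial genes to 7.91 against 7.84 and 9.65 CPM. The 26 other endothelial markers summed to 197.9 against 191.2 and 187.8 CPM. The cause of the high values in that library was not tested. Without that library Pecam1 fell by 1.46 on the log2 scale (edgeR adjusted p = 0.000373), and without E12.5 replicate 2 Flt1 rose by 1.72 (edgeR adjusted p = 0.0173).

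Between E12.5 and E14.5, 2 of the 8 tested genes rose and 1 fell, where 65.7% of all genes were called, 32.6% rising and 33.1% falling. Besides Kdr, Esam rose from the values above to 1.61, 1.93 and 2.47 CPM, by 0.80 ± 0.30 (edgeR adjusted p = 0.0326), and Erg fell to 0.903, 1.07 and 1.27 CPM, by 0.94 ± 0.37 on the log2 scale (edgeR adjusted p = 0.0425). The Erg difference was -0.37 (edgeR adjusted p = 0.297) without E12.5 replicate 1, and the call was also lost without E14.5 replicate 1 or 2 (0.114 and 0.0853). That of Esam was lost without E12.5 replicate 2 or 3 or E14.5 replicate 3, with edgeR adjusted p-values of 0.104, 0.118 and 0.102. Without E12.5 replicate 1, Pecam1 (1.21) and Cdh5 (1.20) were called higher, with edgeR adjusted p-values of 0.00138 and 0.0499. Pecam1 (0.53), Cdh5 (0.38), Tie1 (0.25), Flt1 (0.06) and Tek (-0.09) did not pass with all libraries. In 3 of the 8 genes the groups were apart, as in 69.6% of all genes. The medians were 0.31 for the 8 genes and -0.0076 for all genes tested.

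From E10.5 to E14.5, 3 of the 8 tested genes rose (Kdr, Erg and Esam) and 0 fell, against 82% of all genes called and 42% that rose. Erg was higher by 2.67 ± 0.49 (edgeR adjusted p = 0.000352) and Esam by 1.76 ± 0.32 (edgeR adjusted p = 0.000304). Cdh5, at 1.89, 1.93 and 2.72 CPM at E14.5, had 1.25 ± 0.55 and an edgeR adjusted p of 0.0521. It was called without E10.5 replicate 3 (0.0468) and, with all libraries and no filter, at 1.22 (edgeR adjusted p = 0.0419). Flt1 (1.34 ± 0.61) was called without E14.5 replicate 1 (0.0377). DESeq2, limma-voom and a fit of the 6 libraries of this comparison alone each called 4 genes higher, as did the fit with no filter. Pecam1 (-0.25), Tek (-0.28) and Tie1 (1.06) did not pass. Groups were apart in 5 of the 8 genes, and in 84% of all genes, with medians of 1.30 for the 8 genes and 0.024 for all genes tested.

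The 7 further vascular lists were also followed through the sorted cells. Of 48 tested genes, 22 were higher and 13 lower at E12.5 than at E10.5, and 28 were higher and 10 lower at E14.5 than at E12.5, where 68.8% and 65.7% of all genes were called. Cd34, a sialomucin of endothelial and also of mesenchymal progenitor cells, read 4.58, 4.50 and 5.42 CPM at E10.5 and 473, 498 and 494 CPM at E14.5. The VEGF co-receptor Nrp1 went from means of 59.8 to 250.4 and 759 CPM, and Vegfa, the ligand of Kdr, from 64.8 to 125 and 249 CPM. The 26 other endothelial markers spanned a wide range at E14.5, from Cd34, Eng (71.3 CPM on average), Ramp2 (42.1 CPM) and Clec14a (29.9 CPM) down to Cldn5 and Hhex, both listed at 0. These genes, and Cd93 above, are named after their values were seen.

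From E10.5 to E12.5, 7 of 16 other endothelial markers rose and 3 fell, and the furthest moved were Gata2 (log2 fold change -4.90), Cd34 (4.79) and the sphingosine phosphate receptor S1pr1 (2.08). In the VEGF family Nrp1 (2.07) and the ligand Pgf (1.63) rose and the ligand Vegfd (-1.96) fell, and Angpt1 rose by 1.07. The ETS factors Fli1 (-1.75) and Etv6 (-0.69) fell and Ets1 (0.66) rose. The Notch ligand Dll4 (2.57) and Efnb2 (0.63) rose and Hey1 (-2.61) fell among arterial genes, and the lymphatic factor Prox1 (1.92) and Ephb4 (0.31) rose where the venous factor Nr2f2 (-1.72) fell. The mural genes Rgs5 (-3.88) and Kcnj8 (-3.29) fell while Acta2 (2.49) rose. Dll4, Acta2 and Prox1 started low, at means of 0.391, 0.444 and 0.936 CPM at E10.5.

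From E12.5 to E14.5, 10 of 16 other endothelial markers rose and 1 fell, led by Eng (log2 fold change 4.36), Icam2 (3.58) and Ecscr (2.70). Eng, a TGF-beta co-receptor, read 4.31, 2.32 and 3.84 CPM at E12.5 and 72.4, 60.3 and 81.0 CPM at E14.5. Vegfd (2.66), Pgf (2.22) and Nrp1 (1.60) rose, and Angpt1 (-0.89) and Angpt2 (-0.72) fell. Ets1 (1.67), Elf1 (0.85) and Elk3 (0.40) rose, as did Gja5 (2.16), Dll4 (1.87) and Prox1 (0.47), while Efnb2 (-1.06) and Nr2f2 (-1.81) fell. Of 10 mural genes 7 rose and 2 fell, with Kcnj8 (5.58) and Abcc9 (4.89), parts of one potassium channel, and Myh11 (3.32) in front.

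Over the whole interval, 31 of the 48 genes were higher and 10 lower at E14.5 than at E10.5, where 82% of all genes were called. On the log2 scale, Cd34 (6.66) and Icam2 (4.43) rose furthest of the other endothelial markers and Gata2 (-7.13) fell. In the VEGF family Pgf (3.84), Nrp1 (3.67) and Vegfa (1.94) rose. Ets1 (2.34) and Elf1 (1.01) rose and Fli1 (-1.61) fell, Dll4 (4.43) and Gja5 (2.31) rose and Hey1 (-3.42) fell, and Prox1 (2.39) and Ephb4 (0.22) rose where Nr2f2 (-3.53) fell. The mural genes Abcc9 (4.85), Myh11 (4.35) and Cspg4 (3.92) rose. Icam2, Dll4, Gja5, Myh11 and Prox1 started low, at means of 0.188, 0.391, 0.433, 0.716 and 0.936 CPM at E10.5.

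**Figure D5:**
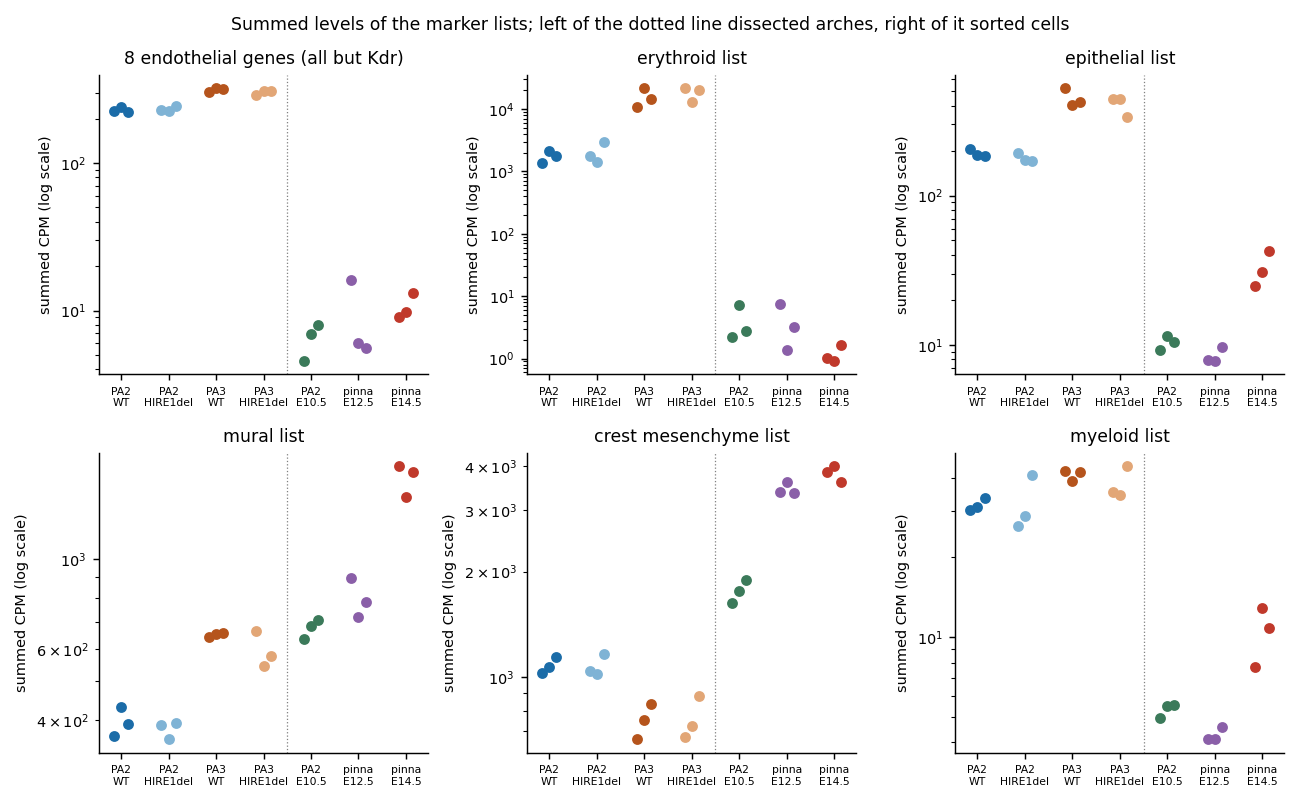
Summed CPM (log scale) of 6 marker lists in each of the 21 libraries, 3 points per group, with dissected arches left and sorted cells right of the dotted line. The 8 endothelial genes without Kdr sum to 222 to 322 CPM in dissected arches and to 4.58 to 16.2 CPM in sorted cells, the erythroid list falls from over 1000 CPM to under 10 CPM, the mural list stays at 635 CPM or more in sorted cells, and the crest mesenchyme list is at 1629 CPM or more there against at most 1161 CPM in dissected arches.

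The genes most like the 9 were ranked by the correlation of log2(CPM + 0.5) with the mean of the 9 over libraries. Over the 12 dissected libraries the nearest included Cdhr1, Chrna3, Hoxd4, Dcx, Hoxd3, Vwf, Neurod1, Bdnf and Sobp, with r from 0.981 down to 0.973, and each point shares the arch with 5 others. Over the 9 sorted libraries they were Cd93 (r = 0.978), Cyp4f13, Adgrf5, Ppp1r12c, Mir541, Tsc22d4, Smco3, D2hgdh, 1190005I06Rik and Trim3 (r = 0.948). With group means taken out, Cd93 was again nearest in the sorted libraries (r = 0.978), followed by C2cd5, Flcn, Fermt3, Pin4, Smco3, S100a1, Fmo5, Cyp4f13 and Cbr1. In the dissected libraries the 10 were then Igf1, Samd4, Grk4, Gdf5, Irx2, Fam171b, Evi5, Gstk1, Ptx3 and Cebpg (r = 0.956 to 0.924). With 2 CPM added in place of 0.5, 6 of the 10 stayed over the dissected libraries and 5 over the sorted ones. With group means taken out, 4 and 7 stayed. The 100 nearest genes, 0.696% and 0.745% of those compared, held 2 of 24 and 3 of 16 tested other endothelial markers. With group means taken out they held 0 and 2. These are descriptions over few libraries.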

How the data were processed

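RNA-seq of 21 mouse libraries was used, in a genotype table (12 libraries, paired-end) and a stage table (9 libraries, single-end), which were normalized and tested separately. The deposited values are raw read counts per gene. Per the methods of the study, the authors aligned reads to GRCm38 (mm10) with QuasR and HISAT2 and counted them over UCSC known genes on the strand opposite to the gene, although the kit is described as unstranded, and bcl2fastq 2.17 and 2.20 are named in the submitters' processing notes. Reads of a gene and of an antisense gene that shares its exon bases could therefore not be told apart, and none of the 9 genes has such a partner in the annotation used. Replicates differed beyond sampling noise (chi-square per degree of freedom 6.68 to 44.2).

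The 9 genes, the marker lists and the tests were chosen with earlier results of these data known. Counts were fitted with edgeR 4.0.16 (R 4.3.3; quasi-likelihood, TMM, 1 model per table), for genes with at least 1 CPM in 2 libraries (14383 and 13438 genes), two-sided, with Benjamini-Hochberg adjustment over all tested genes and calls at an adjusted p under 0.05. Intervals are 95% intervals of the fit. The scripts were tested on simulated data. The text names all 9 genes, up to 3 called genes with the furthest change per vascular list and comparison, and the 10 genes most like the 9, of which 1 is not reported here. DESeq2 1.42.0, limma-voom (limma 3.58.1), other scalings, filters and left-out libraries were alternatives.

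Libraries of PA2 and PA3 with the same genotype and number deviated together from their group means (r = 0.213 to 0.382 in 6 pairs, all above 0.1). They were taken as paired by this number in an alternative fit alone, although no label states that they share an embryo pool. The main fit, which gave the SEs, the intervals and the calls of the figures, does not pair them. 18 genes without a symbol were kept in the fits. RPKM were computed from the counts, TMM library sizes and exon lengths of the table.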

Additional observations from a re-analysis of the deposited data

How the results depend on the processing

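The counts of endothelial genes past the threshold were 0 for HIRE1del against WT in PA2, in PA3 and in the interaction under every alternative run. For PA3 against PA2 they ran from 4 to 6 in WT and from 4 to 6 in HIRE1del when a replicate was left out, and from 4 to 6 and 4 to 5 under the other settings. Between stages, leaving out a replicate gave 2 to 4 genes for E12.5 against E10.5, 2 to 4 for E14.5 against E12.5 and 3 to 4 for E14.5 against E10.5. Under the other settings the counts were 2 to 4, 1 to 3 and 3 to 4 in the same order. The 3 calls of E14.5 against E12.5 became 1 at an adjusted p under 0.01 and 1 with the replicate number as a block. Erg in that comparison was also not called by DESeq2 (adjusted p = 0.0508) or limma-voom (0.0604), and Pecam1 was called lower at E12.5 than at E10.5 by limma-voom (-0.97, adjusted p = 0.0220). Cdh5, at 0.38 between E12.5 and E14.5, ran from -0.02 to 1.20 over the left-out replicates, with -0.022 without E12.5 replicate 3, and the cause was not tested. Of the comparisons of single genes, 41 were called under no setting, and 44 of their 652 alternative values changed sign.

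Over all genes, DESeq2 called 162 genes in PA2, 94 in PA3 and 29 in the interaction, against 63, 31 and 7 by edgeR. An adjusted p under 0.01 left 30, 9 and 3 of these, and 3271 and 2947 genes for PA3 against PA2 in WT and HIRE1del, against 5252 and 4806. Leaving out a replicate gave as few as 33, 8 and 3 genes and, in the interaction, up to 12.

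The replicate numbers of genotypes within an arch (r = -0.136 to 0.236) and of stages (r = -0.312 to 0.202) were not taken as pairs. The highest of these, 0.236, lay within the range of the arch pairs, 0.213 to 0.382. With the number as a block, 105 genes were called in PA2 and 54 in PA3. With the PA2 and PA3 libraries of a genotype paired by number, 26 genes were called in the interaction. By that pairing of the arches, Kdr was the 1 endothelial gene whose call changed. Between E12.5 and E14.5, the number as a block took the endothelial calls from 3 to 1, as given above. Precision is limited for Erg in all libraries and, in sorted cells, for every gene but Kdr.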

Other observations

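The median correlation of Kdr with the other 8 endothelial genes, on log2(CPM + 0.5), changed sign with the removal of group means, in opposite ways in the dissected and the sorted libraries. Among the 12 dissected libraries the 8 pairs that hold Kdr had a median r of -0.56 (1 above 0) over all libraries and 0.31 (6 above 0) with group means taken out, where all 36 pairs had 0.63 and 0.18. Among the 9 sorted libraries the 8 pairs with Kdr had a median of 0.48 (6 above 0) over all libraries and -0.24 (1 above 0) with group means taken out, where all 36 pairs had 0.49 and 0.69. Single pairs did not all follow the median. In the dissected libraries Emcn (-0.69 and -0.28) and Tie1 (-0.70 and -0.17) stayed below 0 with Kdr, and Erg stayed above 0. In the sorted libraries Tek stayed below 0 (-0.17 and -0.40), and Pecam1 went from -0.14 to 0.07. The points share their group, and these values are descriptions.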
